A study of Mus musculus with 15 samples.

Results

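The immediate early transcription factors described here were 10 genes, Fos, Fosb, Jun and Junb of the AP-1 complex, Egr1, Egr2 and Egr3 of the Egr family, and Atf3, Ier2 and Btg2, matched by symbol to the Ensembl identifiers of the deposited tables. They were chosen by name as AP-1, Egr and related early genes, with their counts in these mice already known, so every difference between groups given for them is a description. They were 10 of 55450 genes counted, and all 10 were among the 16920 genes that passed the filter on low counts and were tested. RNA sequencing was done on the gastrocnemius, the large calf muscle, of 15 female C57BL/6JN mice older than 17 months, each library from the muscle of a single animal. Mice called robust in the sample labels are named Low (few frailty markers) and those called frail are named High, and each class was either left sedentary in the cage (Control) or sampled 24 h after the last of 2 bouts of downhill treadmill running at a 22 degree decline (Run). The Low class held 4 Control and 4 Run mice and the High class 3 Control and 4 Run mice, and the labels name no transgene or drug for any of them. Per the study's methods, tissues were taken under ketamine and xylazine anesthesia. The soleus and extensor digitorum longus were removed for force tests, and the other tissues were snap-frozen. The part of anesthesia and dissection in the values below was not tested. Frailty class was set after the experiment from the number of positive markers per mouse, so the classes describe observed differences between animals of a single genotype. Total counts per library ranged from 19395125 to 30699216.

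Immediate early genes are switched on within minutes of a stimulus, without new protein synthesis, when kinases of the MAP kinase and calcium pathways act on factors already bound at their promoters. Fos family and Jun family proteins pair through leucine zippers to form AP-1, which binds AP-1 sites, while Egr proteins are zinc finger factors that bind GC-rich sites. In skeletal muscle these transcripts are known to be raised by contraction, stretch and injury, and to be short-lived.

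RefSeq upstream sequence (GRCm38.p6, within 250 bases of the annotated start and outside the GENCODE exons) was held for 7 of the 10 genes, and the promoters of the 4 Fos and Jun family genes, which encode the partners of AP-1, are shown. Capitals mark the cAMP response element half-site TGACG and the TATA box TATAAA, and each sequence reads 5′ to 3′ on the strand of its gene. The Fos sequence spans chr12:85473640-85473889 on the plus strand, that of Fosb chr7:19310052-19310295 on the minus strand, that of Junb chr8:84978749-84978998 on the minus strand and that of Jun chr4:95052223-95052472 on the minus strand.
Fos: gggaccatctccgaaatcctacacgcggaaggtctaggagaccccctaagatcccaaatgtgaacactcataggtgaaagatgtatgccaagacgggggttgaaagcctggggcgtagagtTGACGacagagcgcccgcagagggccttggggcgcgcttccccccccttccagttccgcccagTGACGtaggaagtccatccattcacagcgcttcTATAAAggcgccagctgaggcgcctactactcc
Fosb: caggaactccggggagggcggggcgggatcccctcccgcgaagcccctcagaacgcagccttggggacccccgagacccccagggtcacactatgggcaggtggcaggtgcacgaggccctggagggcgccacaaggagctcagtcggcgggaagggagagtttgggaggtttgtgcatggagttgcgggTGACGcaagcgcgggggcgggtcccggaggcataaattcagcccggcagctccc
Junb: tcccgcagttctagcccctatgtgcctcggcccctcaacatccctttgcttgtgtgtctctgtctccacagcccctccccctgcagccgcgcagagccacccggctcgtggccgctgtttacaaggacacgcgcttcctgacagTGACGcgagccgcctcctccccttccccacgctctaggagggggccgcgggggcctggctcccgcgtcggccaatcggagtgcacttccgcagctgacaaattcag
Jun: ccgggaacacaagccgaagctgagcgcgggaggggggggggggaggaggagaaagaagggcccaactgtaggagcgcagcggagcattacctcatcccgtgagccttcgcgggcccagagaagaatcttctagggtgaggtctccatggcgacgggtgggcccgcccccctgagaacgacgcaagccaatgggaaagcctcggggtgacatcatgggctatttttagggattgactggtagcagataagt

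In Fos the half-site lay 129 to 125 and 66 to 62 bases before the start and TATAAA 33 to 28 bases before it, and the half-site lay 60 to 56 bases before the start of Fosb and 106 to 102 before that of Junb. The half-site TGACG, searched on both strands, was found in at least 1 window of 6 of the 7 genes (Fos, Fosb, Junb, Atf3, Btg2 and Egr2, but not Jun), and in 17.8% of 32851 mouse promoter windows of the same length. The 7 genes had 11 windows, 5 of them for Egr2, where the half-site lay in 3 overlapping windows of internal starts, so counts of genes are not shares of windows here or for the other motifs. The full cAMP response element TGACGTCA, which contains the half-site, was found upstream of Btg2 alone and in 1.55% of windows. TATAAA was present in Fos alone and in 12.4% of windows. The CArG box, which serum response factor binds, was matched in Egr2 alone and in 1.47% of windows. The GC box GGGCGG was present in 6 of the 7, all but Junb, and in 32.7% of windows, and the Egr site (GCGGGGGCG or GCGTGGGCG) in Fosb alone, where it overlapped a GC box, and in 3.06% of windows. The AP-1 site (TGACTCA or TGAGTCA) was matched in 0 of the 7 and in 4.46% of windows. These are letter matches in a fixed window and say nothing of binding.

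On the scale of CPM per kilobase of exon (CPM being the read count scaled to library size with TMM factors), which allows levels of different genes to be set side by side, Jun had the highest median over the 15 mice at 47.4 and was followed by Fos at 28.6, Junb at 21.2 and Btg2 at 20.6. Egr1 had a median of 11.9, Ier2 of 9.48, Atf3 of 7.16 and Fosb of 2.97 CPM per kilobase. Egr2 at 0.840 and Egr3 at 0.473 were the least abundant. The ranges over mice of every pair of neighbours in that order overlapped, so that the order of neighbours was not set apart from the spread between mice. The genes also differed in how far they ranged between animals. Fosb spanned a 73.4-fold range of CPM from the lowest to the highest mouse, Fos 21.4-fold, Egr1 15.2-fold and Egr3 12.8-fold. Junb spanned 7.17-fold, Ier2 7.01-fold, Btg2 4.88-fold, Egr2 4.72-fold and Atf3 4.38-fold, and Jun, the most abundant, only 3.52-fold. Counts behind these values ran from 12 reads (Egr3 in the Low Control mouse D9) to 8718 reads (Jun), and Egr2 and Egr3, whose highest counts were 112 and 176, carried the most counting error.

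**Figure D1:**
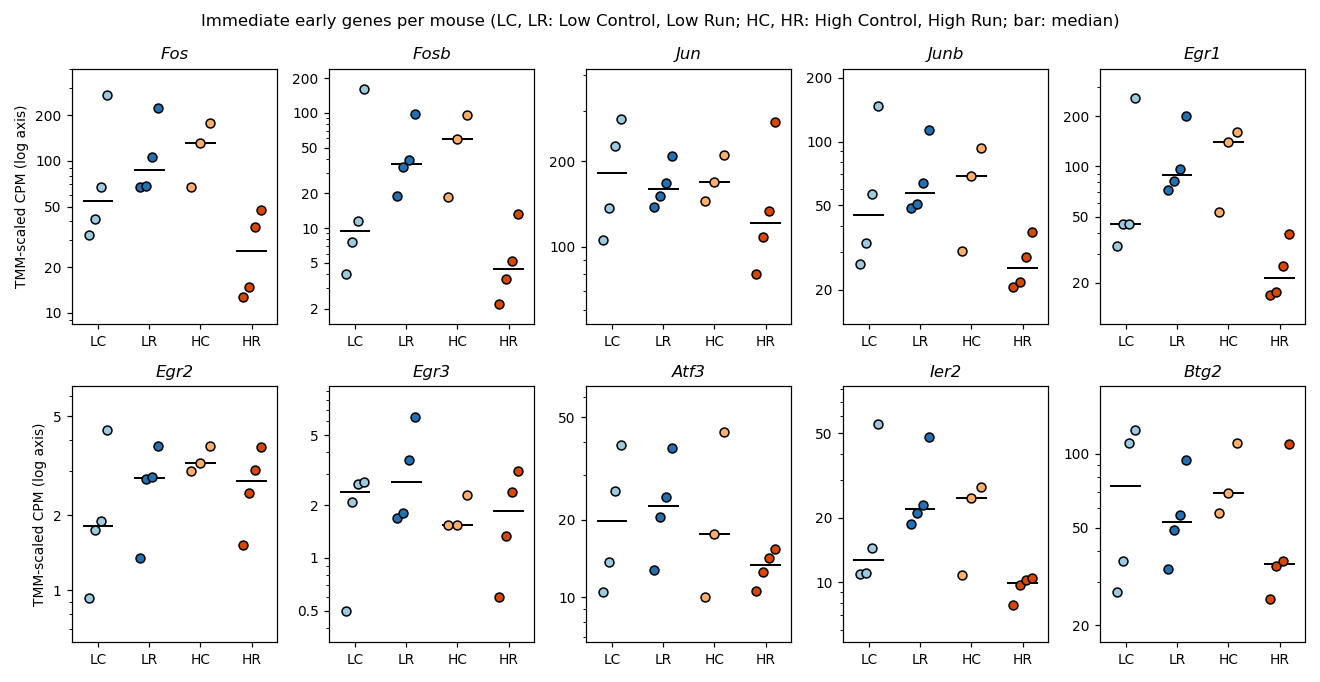
TMM-scaled CPM (log axis) of the 10 genes in each of the 15 mice, grouped as Low Control (LC), Low Run (LR), High Control (HC) and High Run (HR), with 1 point per mouse and a bar at the group median. For Fos, Fosb, Egr1 and Ier2 all 4 High Run points lie below the 3 High Control points, and in Low Control 1 mouse (D8) stands far above the other 3 for the same genes.

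Fos (ENSMUSG00000021250, chromosome 12, 85473890 to 85477273, plus strand of mm10) encodes the founding Fos family partner of AP-1. In Low Control its CPM was 270.1 in mouse D8, 67.1 in D9, 32.7 in D11 and 41.6 in D98. In Low Run it was 67.2 in D57, 68.4 in D61, 106 in D66 and 222 in D68. All 4 Low Run values lay between those of D9 and D8, the lowest of them just above D9, so that the Low groups overlapped through D8 alone. In High Control Fos was at 177 CPM in D23, 67.1 in D25 and 130.4 in D67, and in High Run at 36.6 in D49, 47.9 in D52, 12.6 in D53 and 14.8 in D62. Every High Run value was below every High Control value and every Low Run value. In Low Control, however, D11 and D98 lay within the High Run range.

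Fosb (ENSMUSG00000003545, chromosome 7, 19302696 to 19310051, minus strand) encodes a second Fos family partner, and had the widest range of the 10 genes. Its CPM in Low Control was 162 in D8, 11.5 in D9, 3.98 in D11 and 7.60 in D98, and in Low Run 18.9 in D57, 38.7 in D61, 33.8 in D66 and 97.8 in D68. All 4 Low Run mice lay above 3 of the 4 Low Control mice and below D8. In High Control it was 96.2 in D23, 18.6 in D25 and 58.9 in D67, and in High Run 13.4 in D49, 5.21 in D52, 3.62 in D53 and 2.20 in D62. As for Fos, the High Run mice did not overlap High Control or Low Run, but they did overlap Low Control. There D9, D11 and D98 lay within the High Run range of 2.20 to 13.4 CPM.

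Jun (ENSMUSG00000052684, chromosome 4, 95049034 to 95052222, minus strand) encodes the Jun partner that can pair with itself or with Fos proteins. Jun was at 282 CPM in D8, 225 in D9, 106 in D11 and 137 in D98 of Low Control, and at 151 in D57, 138 in D61, 168 in D66 and 208 in D68 of Low Run. High Control held 210.4 in D23, 145 in D25 and 169 in D67, and High Run 109 in D49, 133 in D52, 80.1 in D53 and 274 in D62. The High Run mouse D62 had the second highest Jun value of all 15 and the other High Run mice had 3 of the 4 lowest, so that High Run overlapped High Control through D62 alone. Junb (ENSMUSG00000052837, chromosome 8, 84974484 to 84978718, minus strand) encodes a Jun family partner that often opposes Jun. Junb was at 148 CPM in D8, 56.6 in D9, 33.2 in D11 and 26.3 in D98, and at 64.1 in D57, 48.7 in D61, 50.5 in D66 and 114 in D68. In the High groups it was 93.4 in D23, 30.5 in D25 and 68.6 in D67 against 28.6 in D49, 20.6 in D52, 21.7 in D53 and 37.4 in D62. All 4 High Run values of Junb were below all 4 Low Run values, and overlapped High Control through D25 and D62. For Junb, D11 and D98 of Low Control also lay within the High Run range.

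Egr1 (ENSMUSG00000038418, chromosome 18, 34859823 to 34864984, plus strand) encodes the widely expressed zinc finger factor of its family. Low Control mice had 257 CPM in D8, 45.2 in D9, 33.1 in D11 and 45.1 in D98, and Low Run mice 72.2 in D57, 95.9 in D61, 82.0 in D66 and 200.4 in D68. High Control mice had 160.5 in D23, 53.5 in D25 and 139 in D67, and High Run mice 39.2 in D49, 25.2 in D52, 16.9 in D53 and 17.6 in D62. The pattern was that of Fosb, with High Run below High Control and Low Run in every mouse and Low Run between D8 and the rest of Low Control. For Egr1, D11 of Low Control lay within the High Run range. Egr2 (ENSMUSG00000037868, chromosome 10, 67535475 to 67542188, plus strand), known for its part in Schwann cell myelination, stayed between 0.928 and 4.38 CPM over all mice. Its mean CPM was 2.23 ± 1.49 (SD, n = 4) in sedentary Low mice and 2.7 ± 1.01 (SD, n = 4) after running. In High mice the corresponding means were 3.35 ± 0.394 (SD, n = 3) and 2.69 ± 0.943 (SD, n = 4). Egr3 (ENSMUSG00000033730, chromosome 14, 70077203 to 70082614, plus strand), the Egr factor needed for muscle spindle development, ranged from 0.496 in D9 to 6.33 in D61. The 4 groups of Egr2 and of Egr3 overlapped one another.

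Atf3 (ENSMUSG00000026628, chromosome 1, 191170296 to 191218039, minus strand) encodes a stress-induced ATF/CREB family factor that can join Jun proteins. Atf3 lay between 10.6 and 15.4 CPM in the 4 High Run mice, a narrower range than 10.5 to 39.2 in Low Control, 12.8 to 38.1 in Low Run and 10.0 to 44.0 in High Control, all of which it overlapped. Ier2 (ENSMUSG00000053560, chromosome 8, 84661331 to 84662852, minus strand) encodes a small nuclear early response protein. It was at 55.1 CPM in D8, 14.4 in D9, 11.0 in D11 and 10.9 in D98, and at 21.1 in D57, 23 in D61, 18.7 in D66 and 47.9 in D68. High Control values were 27.8 in D23, 10.8 in D25 and 24.8 in D67, and High Run values 10.4 in D49, 7.85 in D52, 10.2 in D53 and 9.66 in D62. The margin between D25 and D49 was small, but again no High Run mouse reached a High Control or a Low Run mouse. For Ier2 the Low Control mice also lay above High Run, D98 by a small margin. Btg2 (ENSMUSG00000020423, chromosome 1, 134075170 to 134079120, minus strand) encodes an antiproliferative adaptor of the CCR4-NOT deadenylase. It was at 111 CPM in D8, 125 in D9, 27.4 in D11 and 36.5 in D98, and at 33.8 in D57, 48.8 in D61, 56.4 in D66 and 94.4 in D68. The High groups gave 110.1 in D23, 69.1 in D25 and 57.4 in D67 against 25.6 in D49, 36.4 in D52, 34.7 in D53 and 109 in D62. As for Jun, the overlap of High Run with High Control came from D62.

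These values show where mice stand apart, and 3 animals need naming before any comparison. D8 had the highest value of its group for 7 of the 10 genes (Fos, Fosb, Jun, Junb, Egr1, Egr2 and Ier2). D9 of Low Control and D62 of High Run lay far from the other 13 mice on the first principal component of the deposited variance-stabilized values of all genes, at -76.0 and -49.3 against -14.4 to 19.7. That component held 26.0% of the variance. D8, at -14.4, was the next mouse on that axis. Deviations of Jun, Btg2 and Egr3 from their group means went with that component across the 15 mice (Pearson's r -0.74, -0.82 and 0.80), whereas r was -0.08 for Fos, -0.01 for Fosb and -0.01 for Egr1. With total counts the r largest in size was 0.43, for Egr2. The part of D9 and D62, or of depth, in the values below was not tested beyond leaving those mice out.

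In High frailty marked mice, the comparison of High Run with High Control asked what the running stress did to these genes, and the same 3 High Control and 4 High Run mice enter the interaction. Fos, Fosb, Egr1, Junb and Ier2 had the most negative differences, with fitted levels after running at 0.224, 0.105, 0.210, 0.422 and 0.452 of High Control. On the log2 scale these were -2.16 ± 0.68 (SE), -3.25 ± 1.06, -2.25 ± 0.63, -1.24 ± 0.51 and -1.15 ± 0.51. Under edgeR's quasi-likelihood test with Benjamini-Hochberg adjustment over all genes, 0 of the 10 genes passed the FDR of 0.1, as 0% of all 16920 genes did, and adjusted p ran from 0.956 to 0.997. At an unadjusted p under 0.05 these 5 of the 10 genes were lower and 0 were higher, against 1.9% of all genes lower and 3.28% higher. For 4 of the 10, Fos, Fosb, Egr1 and Ier2, the groups did not overlap, against 3.61% of all genes. Fosb and Junb had been picked out by the study on the same mice, so these counts are no independent evidence of direction.

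The other 5 genes gave Atf3 -0.86 ± 0.48, Btg2 -0.61 ± 0.55, Egr2 -0.31 ± 0.43, Jun -0.23 ± 0.37 and Egr3 0.04 ± 0.59. Of the 10 log2 differences 9 were negative, with a median of -1.0 against 0.05 over all genes. For Jun the interval of ±2 SE ran from -0.97 to 0.51, and for Egr3 from -1.14 to 1.22. Without D62 the count at an unadjusted p under 0.05 became 6 (Fos, Fosb, Jun, Junb, Egr1 and Btg2) and 7 of 10 genes did not overlap between groups, against 1.44% and 6.01% of all genes. The count was 3 (Fos, Fosb and Egr1) without D23, without D52 and without D53, against 1.34%, 2.06% and 2.53% of all genes. Fos, Fosb and Egr1 kept an unadjusted p under 0.05 whichever of the 15 mice was left out, with log2 differences from -2.55 to -1.82 for Fos, -3.98 to -2.67 for Fosb and -2.60 to -1.96 for Egr1.

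The count of calls differed between settings. With the DESeq2 Wald test on the 7 High mice alone, a setting chosen after seeing the data, 4 of the 10 genes passed the FDR of 0.1 (Egr1 with an adjusted p of 9.38e-06, Fosb 0.0416, Ier2 0.0604 and Junb 0.0888), against 0.0673% of 32693 genes lower. With edgeR and no filter on low counts it was 3 (Egr1 0.0606, Fos 0.0927 and Fosb 0.0951 as adjusted p), against 0.0198% of genes lower. With DESeq2 on all 15 mice and with limma-voom using sample quality weights 0 of the 10 passed, against 0.0424% and 0.266% of all genes. Over the 25 alternatives the adjusted p ran from 9.38e-06 for Egr1, 0.0416 for Fosb, 0.0927 for Fos, 0.0604 for Ier2 and 0.0888 for Junb up to 1 for each of the 5.

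**Figure D2:**
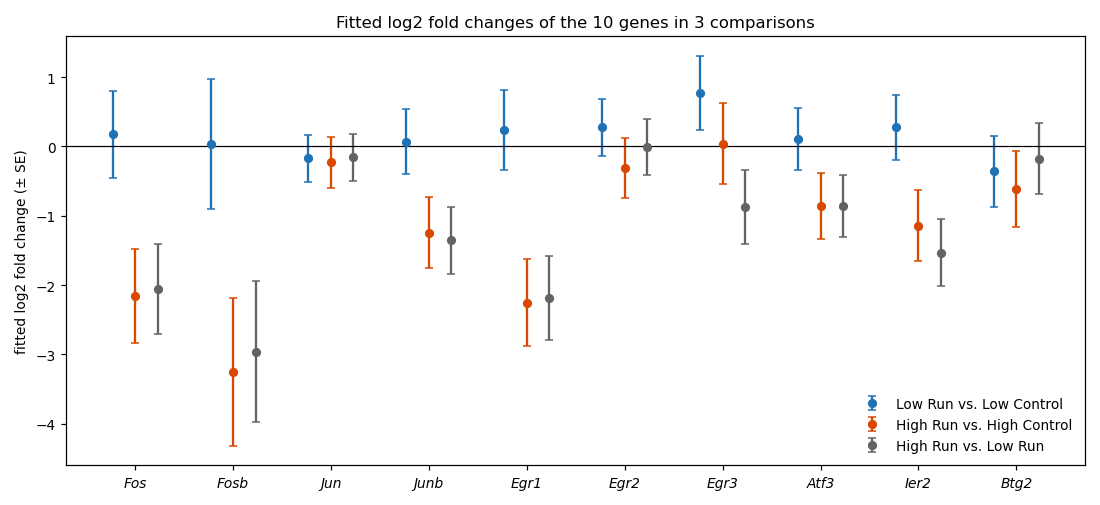
Fitted log2 fold changes from edgeR with standard errors for the 10 genes, in separate colors for the effect of running in Low mice, its effect in High mice, and High Run vs. Low Run. Fos, Fosb, Junb, Egr1 and Ier2 lie below -1 in both comparisons that use the High Run mice, while the Low Run values lie between -0.36 and 0.77.

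Set against Low Run, which asked how the 2 frailty classes differed after the same running, the High Run mice were again lower for Fos, Fosb, Egr1, Junb and Ier2. The log2 differences were -2.05 ± 0.65 (SE), -2.96 ± 1.02, -2.19 ± 0.60, -1.35 ± 0.48 and -1.53 ± 0.48. Groups did not overlap for these 5 of the 10 genes, against 0.78% of all genes, and 5 of 10 had an unadjusted p under 0.05 in that direction, against 0.987%. By edgeR, DESeq2 on all 15 mice and limma-voom 0 of 10 genes (and 0% of all) passed the FDR of 0.1, each of the 10 with an adjusted p of 0.999 in edgeR. DESeq2 on the 8 Run mice alone called 3 genes of 33424 (0.00898%) at that FDR in either direction, all of them lower, and all 3 were among the 10 (Egr1 with an adjusted p of 1.71e-05, Ier2 0.00343 and Junb 0.0761). Over the 25 alternatives the adjusted p reached 1 for each of these genes. edgeR without the count filter called Egr1 alone of the 10 (adjusted p 0.0891), against 0.0113% of all genes lower. Egr3 at -0.87 ± 0.54 and Atf3 at -0.86 ± 0.45 overlapped between groups. Jun at -0.16 ± 0.34, Btg2 at -0.18 ± 0.51 and Egr2 at -0.00 ± 0.40 were close to 0 on the log2 scale, with an interval of ±2 SE from -0.81 to 0.80 for Egr2. High Run vs. Low Run and High Run vs. High Control share the 4 High Run mice, so the likeness of their values is no repeat of the result.

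In Low frailty marked mice, Low Run against Low Control gave log2 differences from -0.36 (Btg2) to 0.77 (Egr3), 8 positive and 2 negative, with a median of 0.14 against 0.02 over all genes. At an unadjusted p under 0.05, 0 of 10 genes were higher or lower, where 5.92% of all genes were higher and 7.52% lower. Adjusted p under edgeR ran from 0.490 to 0.990, and DESeq2 (0.0254% of all genes) and limma-voom (0%) also called 0 of 10. Groups overlapped for all 10, where 3.32% of all genes did not overlap and were higher and 3.6% lower. Fosb was at 0.04 ± 0.93 (SE) and Fos at 0.17 ± 0.62, where the standard errors carry the spread between D8 and the other sedentary mice. The comparison turned on D8. Without D8 the median was 0.89, and 5 of 10 genes were higher at an unadjusted p under 0.05, against 4.67% of all genes. These were Fosb at 2.62 ± 0.71 (SE), Egr1 at 1.45 ± 0.42, Fos at 1.3 ± 0.53, Ier2 at 1.19 ± 0.34 and Egr2 at 0.82 ± 0.37. Groups then did not overlap for Fos, Fosb, Egr1 and Ier2, against 4.95% of all genes. For Fos the margin was very small, with D57 of Low Run at 67.21 and D9 at 67.09 CPM. The smallest adjusted p without D8 was 0.400, and that was the lowest of these 5 genes over the 25 alternatives, which reached 1 (Fosb) at the other end. No label set D8 apart from the other Low Control mice, so its value stands in the comparison.

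The sedentary mice of the 2 frailty classes, High Control against Low Control, gave a median log2 difference of 0.09 against -0.02 over all genes, with values from -0.14 (Egr3) to 0.58 (Egr2). None of the 10 genes had an unadjusted p under 0.05 or groups that did not overlap, where 1.8% of all genes were higher and 4.06% lower at that p and 5.14% and 5.28% did not overlap, and edgeR, DESeq2 and limma-voom called 0 of 10, as they called 0% of all genes. Without D8 all 10 differences were positive, the median was 0.77, and Fosb (2.91 ± 0.74, SE), Egr1 (1.52 ± 0.44), Fos (1.41 ± 0.55), Egr2 (1.13 ± 0.39) and Ier2 (0.80 ± 0.36) had an unadjusted p under 0.05, 5 of 10 against 2.13% of all genes, with a smallest adjusted p of 0.663 without D8. Fos, Fosb, Egr1 and Egr2 then did not overlap, 4 of 10 against 8.16% of all genes. For Fos the margin was very small, with D25 of High Control at 67.15 and D9 at 67.09 CPM. Over the 25 alternatives the adjusted p of these 5 genes ran from 0.515 to 1. Low Run vs. Low Control and High Control vs. Low Control share the same sedentary mice, so leaving out D8 moves both at once.

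**Figure D3:**
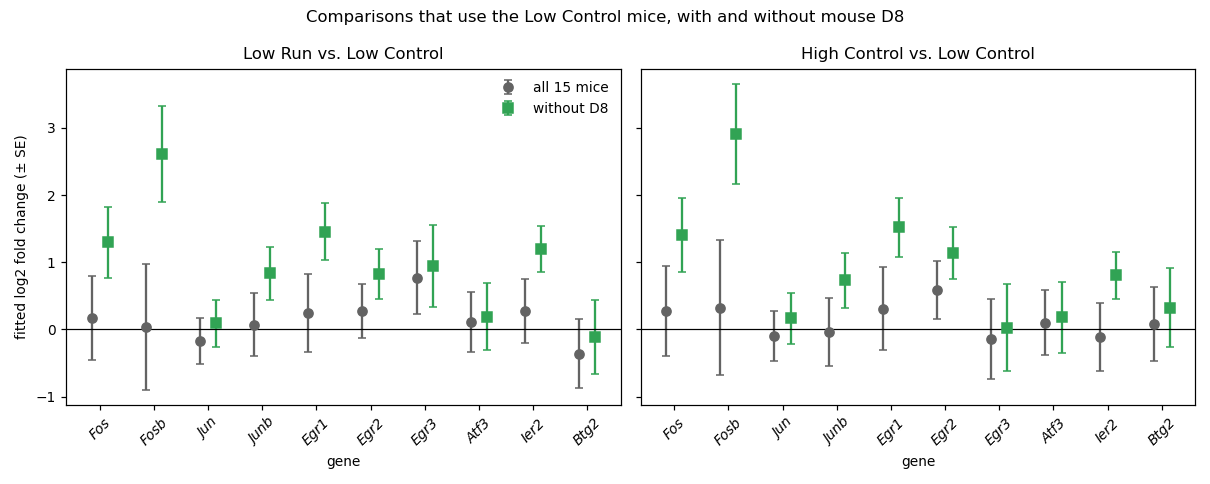
Fitted log2 fold changes (± SE) of the 10 genes in the comparisons that use Low Control, from all 15 mice (circles) and without the Low Control mouse D8 (squares). Without D8 Fosb moves from 0.04 to 2.62 in Low Run vs. Low Control and from 0.33 to 2.91 in High Control vs. Low Control, while Jun, Atf3 and Btg2 lie between -0.11 and 0.33 without D8.

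The Frailty × Run interaction, the difference between the run effect in High and in Low mice, was negative for all 10 genes (for Jun and Btg2 it turned positive under some alternatives, up to 0.15 and 0.08), with a median of -1.14 against 0.03 over all genes. Fosb at -3.29 ± 1.40 (SE), Egr1 at -2.50 ± 0.85 and Fos at -2.33 ± 0.92 had an unadjusted p under 0.05, 3 of 10 against 2.69% of all genes lower. By edgeR 0 of 10 and 0% of all genes passed the FDR of 0.1, and the adjusted p ran from 0.600 to 0.977. DESeq2 and limma-voom called 0 as well. Ier2 at -1.42 ± 0.70 and Junb at -1.32 ± 0.69 followed, and Jun at -0.06 ± 0.50 and Btg2 at -0.25 ± 0.75 were closest to 0. The count at an unadjusted p under 0.05 was 6 without D8 and 5 without D25, against 2.67% and 1.74% of all genes lower, and 1 (Egr1) without D68 or D23, against 2.4% and 2.22%. Egr1 alone of the 10 kept an unadjusted p under 0.05 whichever single mouse was left out.

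Within groups the genes varied together, although unevenly. For each gene the log2 CPM minus the mean of the mouse's group was taken over the 15 mice, and Pearson's r was computed for the 45 pairs. Every point is 1 library, so both genes of a pair share its depth, its piece of muscle and its RNA, and the values are a description. The median r was 0.47, the range -0.58 to 0.98, with 12 pairs above 0.7 and 5 below 0. Without D8 the median r was 0.28, and with all mice the median r of the 10 genes with the 16906 other genes was -0.00. The closest pair was Fosb and Egr1 (r 0.98, Spearman's rho 0.95, and r 0.95 without D8 and D11, the mice farthest out in Fosb). Junb and Ier2 gave r 0.93 and rho 0.88, and r 0.88 without D8 and D98. Egr1 and Ier2 gave 0.93 and 0.90, and 0.80 without D8 and D68. Fos and Egr1 gave 0.91 and 0.90, and 0.82 without the same 2 mice. Among Fos, Fosb, Egr1, Junb and Ier2, a subset chosen after seeing these values, the 10 pairs ran from 0.74 to 0.98 with a median of 0.90. Without the 2 farthest mice the lowest of these were Fos with Junb at 0.47, Fos with Ier2 at 0.50 and Fosb with Junb at 0.60. The 5 genes differed in amplitude. Per unit of log2 change in Fos, Fosb moved by 1.38, Egr1 by 0.82, Ier2 by 0.57 and Junb by 0.56 within groups, against 0.28 for Jun, 0.28 for Atf3 and 0.12 for Egr3.

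**Figure D4:**
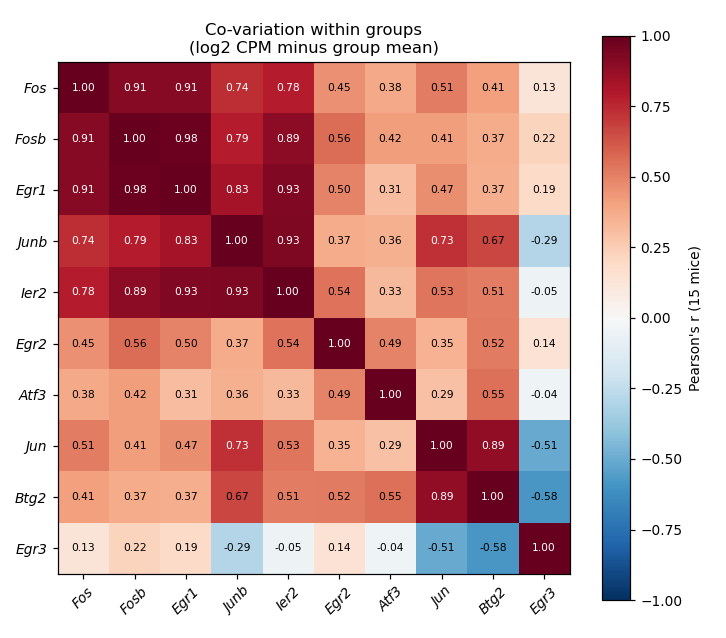
Pearson's r between the 10 genes over 15 mice, computed on log2 CPM minus the group mean, with red for positive and blue for negative values. Fos, Fosb, Egr1, Junb and Ier2 form a block from 0.74 to 0.98, Jun and Btg2 pair at 0.89, and Egr3 is negative with Jun (-0.51) and Btg2 (-0.58).

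Jun was closest to Btg2 (r 0.89, rho 0.87, and 0.82 without D62 and D8) when all mice were kept. Its r was 0.41 with Fosb (rho 0.37, and 0.02 without D8 and D11), 0.51 with Fos and 0.73 with Junb. Leaving out D9 and D62, the outlying mice on the first principal component and a choice made after seeing the data, gave Jun with Fosb 0.88, above Jun with Btg2 at 0.83. Jun with Fosb was 0.80 without D62 alone, 0.45 without D9 alone and 0.13 without D8, so the value rests on D62 and D8. Egr3 stood opposite to Btg2 (r -0.58, rho -0.46) and Jun (-0.51, rho -0.44), but without D9 and D62 these were -0.09 and -0.06. Atf3 had no r above 0.55 (Btg2) and Egr2 none above 0.56 (Fosb). Junb was close to both sets, with r 0.79 to Fosb, 0.73 to Jun and 0.67 to Btg2.

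**Figure D5:**
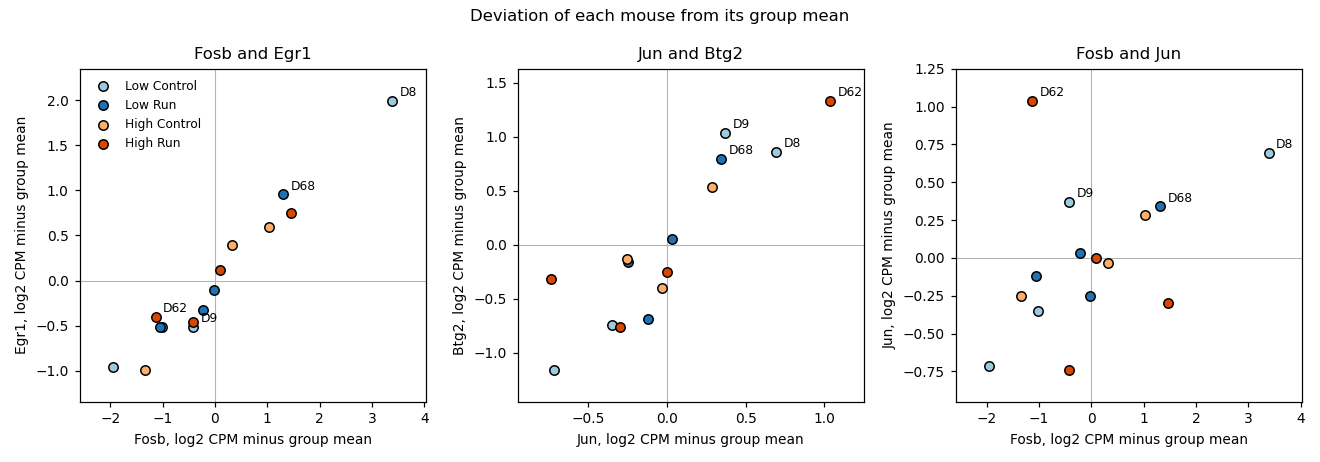
Deviation of each of the 15 mice from its group mean on the log2 CPM scale, for Fosb with Egr1, Jun with Btg2 and Fosb with Jun, with mice D8, D9, D62 and D68 named. Fosb and Egr1 lie along a single line (r 0.98), whereas D62 is the highest mouse for Jun at 1.04 and lies at -1.14 for Fosb.

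The mice that ranked high differed by group. D68 was highest in Low Run for 7 of the 10 genes (Fos, Fosb, Jun, Junb, Egr1, Ier2 and Btg2) and D23 in High Control for 9, all but Egr3. D57 in turn was the lowest of Low Run for 7 and D25 the lowest of High Control for 6. In High Run no mouse led: D49 was highest for 4 genes, D62 for 3, D52 for 2 and D53 for 1. D62 was there the highest for Jun, Junb and Btg2 and the lowest for Fosb, Egr3 and Atf3.

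Among the 13750 genes with a mean of at least 1 CPM, the genes whose deviations were most like the mean of the 10 were Nfkbiz (r 0.90, rho 0.86, and 0.90 without the 2 farthest mice), an atypical IκB protein, and Plk3 (0.88, 0.92 and 0.87), a stress-responsive kinase. Gm37052, an unclassified locus, gave r 0.87, Btg1, the paralog of Btg2, 0.84, and Ccne2, an E-type cyclin, 0.82. Without the 2 farthest mice these were 0.77, 0.65 and 0.57. Mybpc2, the fast muscle myosin binding protein, gave 0.80 but 0.42 without the 2 farthest mice. Ppp1r18, Ndrg2, Rab7-ps1 and Cxcl1, a neutrophil chemokine, lay between 0.78 and 0.80, and between 0.68 and 0.75 without the 2 farthest mice. The median over all ranked genes was 0.01, and these 10 were the top of 13750 over only 15 mice. Of the 10, Nfkbiz, Plk3 and Btg1 belonged to the list of other early genes.

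Other early response genes, 42 tested of 43 listed, had a median log2 difference near 0. Their summed CPM in High Run was 1621 in D49, 1934 in D52, 2057 in D53 and 3523 in D62, against 2335 to 2610 in High Control. So D49, D52 and D53 lay below every High Control mouse and the outlying D62 above. No value without D62 is given for this list. In High Run against High Control their median log2 difference was -0.04, with 19 positive and 23 negative, and 3 of 42 were lower and 0 higher at an unadjusted p under 0.05, against 1.9% of all genes lower. The 3, of which Klf4 and Tob1 are named after their values were seen, were Dusp1, the MAP kinase phosphatase, at -1.3 ± 0.33 (SE), Klf4, a zinc finger factor, at -0.74 ± 0.30, and Tob1, an antiproliferative protein, at -0.43 ± 0.19. Dusp1 lay between 32.6 and 71.3 CPM in High Run and between 123 and 168 in High Control. Zfp36, an mRNA decay factor, was at -1.10 ± 0.63, and at the other end were Cebpd at 0.88 ± 0.99 and Fosl1, a Fos family partner, at 0.87 ± 0.71. Cebpd was at 490 CPM in D62, while its median was 106 in High Run and 111 in High Control. Fosl1 had only 3 to 5 reads per mouse in High Control and 3 to 13 in High Run. In Low Run against Low Control 3 of 42 were lower (Csrnp1, Mafk and Per1, named after their values were seen) and 0 higher, with a median of -0.11, where 7.52% of all genes were lower. The orphan receptors Nr4a1, Nr4a2 and Nr4a3, also early genes, were lower in High Run vs. High Control at -1.13 ± 0.30, -1.25 ± 0.37 and -1.81 ± 0.80, 3 of 3 at an unadjusted p under 0.05, and at 0.08, 0.02 and -0.16 in Low Run vs. Low Control. The Nr4a genes also differed between sedentary mice. In High Control vs. Low Control 2 of 3 were higher at an unadjusted p under 0.05 (median 0.65), against 1.8% of all genes. In High Run vs. Low Run 0 of 3 passed that p, with a median of -0.56. The Nr4a genes, Dusp1, Klf4 and Tob1 had an adjusted p of 0.956 by edgeR in the High Run vs. High Control comparison.

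Transcripts for the kinases and factors that act on early gene promoters had differences near 0 as a list. Of 23 tested, in High Run against High Control 1 was higher and 1 lower at an unadjusted p under 0.05, against 3.28% and 1.9% of all genes, and the median was -0.07. Srf, serum response factor, was at -0.42 ± 0.11 (SE), with 64.0 to 77.6 CPM in High Run and 96.6 to 100.3 in High Control. Elk4, an Srf partner, was at 0.86 ± 0.40, where 1 High Run mouse at 168 CPM stood against a group median of 54.1. Of 17 tested genes known as AP-1 or Egr targets (Mmp13 was not tested), 2 were higher (Timp1 at 1.27 ± 0.48 and Hmox1 at 0.94 ± 0.36) and 1 lower, Ptgs2, the inducible cyclooxygenase, at -2.22 ± 0.72. Ptgs2 was at 0.126 to 1.15 CPM in High Run and 1.70 to 3.92 in High Control. Il6 was at -1.83 ± 1.12, at levels of at most 1.16 CPM in those groups. Ptgs2 was also lower in High Run against Low Run at -1.77 ± 0.69, 1 of 17 at an unadjusted p under 0.05 against 0.987% of all genes.

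Whole muscle holds several cell types, and in bulk RNA fewer cells of a type and less RNA per cell cannot be told apart. Muscle fibre markers dominated every library, with Ckm between 18750 and 33532 CPM and Acta1 between 22347 and 41075. Markers of some other cells differed in comparisons that use the High Run mice. All 5 erythroid markers were higher in High Run than in High Control at an unadjusted p under 0.05 (median log2 difference 2.20), against 3.28% of all genes. Their summed level was 384 to 3856 CPM in High Run, 312 to 487 in High Control, 243 to 825 in Low Run and 489 to 2379 in Low Control. Of 8 macrophage markers 4 were higher in High Run than in High Control (median 0.81, against the same 3.28%), with sums of 130.4 to 281 and 94.6 to 149 CPM. In Low Run vs. Low Control 2 of the 8 were higher and 1 lower (median 0.29), against 5.92% and 7.52% of all genes. Their sums were 182 to 241 CPM in Low Run and 114 to 213 in Low Control. Only 1 of the 8 was higher in High Run than in Low Run (median 0.13, against 1.52%). Of 6 Schwann cell markers only 1 was higher in High Run than in High Control (median 0.45, against 3.28%). Against Low Run, 5 of the 6 were higher in High Run (median 0.80, against 1.52% of all genes higher). Hba-a1 and Hba-a2, both among the 5 erythroid markers, are near-identical copies whose reads may have been split in counting. Endothelial (8), fibroblast (8), satellite cell (7), smooth muscle (6), adipocyte (6) and neutrophil (7) markers had 0 members past an unadjusted p of 0.05 in High Run vs. High Control, and muscle fibre markers 1 of 10 in each direction. Neutrophil markers summed to 465 CPM in D68, 78.1 in D8, 76.6 in D49 and 46.1 in D23, each the highest of its group. D68, D8 and D23 also had the highest Fos of their groups, and D49 the second highest. In High Run the match did not hold, as D52 with the highest Fos had the lowest neutrophil sum at 5.11 CPM. D53, with the lowest Fos there, had a sum of 60.1 CPM. No marker of these lists was at 0 counts in all 15 mice. The part of these cells in the early gene values was not tested.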

How the data were processed

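Gastrocnemius RNA from 15 mice was sequenced, and per the submitters' processing notes reads were aligned to mm10 with STAR 2.7.9a and assigned to genes with featureCounts of Subread 2.0.3, after FastQC 0.11.7. The deposited counts are whole reads per Ensembl gene (uniquely aligned, same-strand pairs per the study's methods), not normalized. Symbols and positions were taken here from GENCODE M21 and a symbol table, which matched 55104 of 55450 identifiers. The authors also deposited variance-stabilized values on a log2 scale from DESeq2 1.32.0, used here for the first principal component and 1 alternative. Mice were grouped by their labels. All 10 genes, and the other lists, were chosen with earlier results of these data known, and Fosb and Junb were picked by the study on these mice. Counts were tested in R 4.3.3 with edgeR 4.0.16 (filterByExpr, TMM, quasi-likelihood test, 1 mean per group over 15 mice) and Benjamini-Hochberg adjustment at an FDR of 0.1. Whether mice shared a cage, litter or day is not stated in the sources used here, and p-values cover the spread between mice. Log2 CPM used a prior count of 0.5. Co-variation was Pearson's r of log2 CPM minus the group mean. Alternatives were DESeq2 1.42.0, limma 3.58.1 voom, other normalizations and filters, length and GC offsets and leaving out each mouse. On simulated counts with 200 genes changed 4-fold in High Run against High Control, 198 were recovered with 24 false calls among 16574 genes. There genes were drawn independently, the changed ones were picked among better counted genes, and no mouse was outlying. That recovery therefore only checks the code and gives no power for the real counts. Named genes were the 10, up to 4 per other list (the 2 most positive and 2 most negative in High Run against High Control), apart from 5 other early genes named after their values were seen, and the 10 most alike in co-variation with a mean of at least 1 CPM. Promoter sequences came from RefSeq (GRCm38.p6).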

Additional observations from a re-analysis of the deposited data

Results flagged for a closer look

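In Low Control, mouse D8 stood apart from the other 3 sedentary mice for 4 genes by Dixon's criterion for a single extreme value. Fos was at 270.1 CPM with the next mouse at 67.1, Fosb at 162 with the next at 11.5, Egr1 at 257 with the next at 45.2, and Ier2 at 55.1 with the next at 14.4. In Low Run, mouse D68 was at 47.9 CPM for Ier2 with the next mouse at 23. In High Run, mouse D62 was at 109 CPM for Btg2 with the next at 36.4. These were 6 of 30 gene and group combinations of 4 mice, and the 4 values of D8 come from 1 library. The criterion's rate of about 1 in 20 by chance holds for normally spread, independent values. It was applied here to CPM, not log2 CPM, of genes that varied together, so the 6 of 30 cannot be set against that rate.

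For 3 of the 10 genes every Low Run mouse lay above the mean of Low Control on the log2 CPM scale. For the same 3 genes every High Run mouse lay below the mean of High Control. In Low mice the groups overlapped, as D8 of Low Control lay above every Low Run mouse for all 3 genes. Ranges given are of single Run mice from the mean of their controls and leave out the spread of the controls. Fosb was 1.36 above Low Control in Low Run (0.30 to 2.67) and -3.28 from High Control in High Run (-4.42 to -1.82). Egr1 was at 0.68 (0.16 to 1.64) and -2.19 (-2.65 to -1.44), and Ier2 at 0.55 (0.09 to 1.45) and -1.04 (-1.32 to -0.90). The edgeR fit, which weighs counts and not their logarithms, gave 0.04, 0.24 and 0.28 for the 3 genes in Low mice. The difference in direction was not tested in that form. The Frailty × Run interaction of the same 3 genes had an adjusted p of 0.600 in edgeR, and 0.147 to 0.996 for Egr1, 0.270 to 0.996 for Fosb and 0.381 to 0.996 for Ier2 over 23 alternatives.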

How the results depend on the processing

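No paired analysis was possible because each mouse number is unique to its animal and the groups share none. The number of the 10 genes past the FDR of 0.1 differed between settings. In High Run against High Control it was 0 in edgeR, 3 without the count filter and 4 with DESeq2 on only the groups compared, and in High Run against Low Run 0, 1 and 3, and the cause was not tested. The FDR of 0.05, DESeq2 on all mice, limma-voom, RLE and upper-quartile normalization, a minimum of 10 counts, length and GC offsets and edgeR on only the groups compared gave 0 in each comparison they could be fitted to, as did leaving out any 1 mouse. Leaving out 1 mouse at a time moved the median log2 difference of the 10 genes from -0.24 (without D68) to 0.89 (without D8) in Low Run against Low Control and from -0.25 (without D23) to 0.77 (without D8) in High Control against Low Control. It stayed between -1.25 and -0.58 in High Run against High Control, -1.31 and -1.02 in High Run against Low Run and -1.61 and -0.88 in the interaction. The median r between the 10 genes was 0.47, and 0.28 (without D8) to 0.57 (without D62) without 1 mouse. Of 1230 recomputed single gene values 0 reversed a call, 11 gained one and 75 changed sign with neither value past the FDR. Counting depth limits Egr2 and Egr3 most.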
